A study of Homo sapiens with 6 samples.

Results

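The nuclear genes for subunits of respiratory complexes I to IV were followed in cells that the labels call NCI-H929, the name of an established line from human multiple myeloma (a plasma cell cancer), after a lentivirus was used to lower PRMT5. The PRMT5 protein places symmetric dimethyl marks on arginines of histones and splicing proteins. Genes were taken by symbol: those beginning with NDUFA, NDUFB, NDUFC, NDUFS, NDUFV, SDHA to SDHD, UQCR, or COX4 to COX8, without pseudogenes and without assembly factors. Of 78 symbols with these beginnings, 12 were assembly factors and 2 pseudogenes, which left 64 genes of 18132 measured. They were 36 genes of complex I, 3 of complex II, 8 of complex III and 17 of complex IV. Each gene was represented by its brightest probe set with a single gene symbol, and 37 of the 64 had more than 1 such probe set. Subunit genes without a single-symbol probe set under these names were not analysed here.

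The respiratory chain is a series of protein complexes in the inner mitochondrial membrane that passes electrons from NADH and succinate to oxygen and pumps protons as it does so. Complex I (the NDUF genes) oxidises NADH, complex II (the SDH genes) oxidises succinate and is also an enzyme of the tricarboxylic acid cycle, complex III (the UQCR genes) passes electrons to cytochrome c, and complex IV (the COX genes) reduces oxygen. All subunits of complex II and most of the others are encoded in the nucleus, while some of the core of complexes I, III and IV is encoded in mitochondrial DNA. Growing blood and plasma cells use the chain both for ATP and to regenerate the NAD+ needed for biosynthesis.

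RNA of 6 cell samples was hybridised to 1 Affymetrix array each. In 3 arrays the cells, called PRMT5_down, carried a lentivirus described as a PRMT5 downregulating sponge in the titles and as a short hairpin RNA in pLKO.1 in the treatment protocol. In the other 3 the cells were called control, with a control sponge lentivirus in the titles, while the protocol calls them normal cells. Cells with the virus were selected with puromycin, and both kinds were collected at the same time. Each group has replicates 1, 2 and 3, and arrays are named below by group and replicate number. The labels give neither what equal numbers share nor separate cultures for the replicates. The p-values therefore cover the scatter among these 6 arrays alone, and that scatter may be technical. Values are log2 signals, with array medians from 5.29 to 5.32, and 3 arrays a group limit the precision of every difference. Because these are bulk samples, fewer cells of a type and less RNA per cell cannot be told apart.

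PRMT5, the targeted gene, had log2 signals of 9.93, 10.35 and 10.30 on control arrays 1 to 3 and of 8.63, 9.65 and 9.37 on PRMT5_down arrays 1 to 3. All PRMT5_down values were below all control values, at 50.8% of control on average. The difference was -0.98 (SE 0.28), and it did not pass over all genes, with a limma adjusted p of 1, or of 0.21 with the replicate block. Background was set on each array as the 95th percentile of 330 olfactory receptor genes, at 4.90 to 5.02. Of 11 markers of plasma cells and of this line, XBP1, FGFR3, NSD2, PRDM1 and SDC1 were above background on all 6 arrays, SDC1 only just, at 4.99 to 5.47, and XBP1 clearly, at 10.02 to 10.88. JCHAIN was above it on 5 arrays, and CD38, TNFRSF17, IRF4, MZB1 and POU2AF1 were at or below it on all 6. All 8 measured erythroid markers were above background on all 6 arrays, with the red cell factors KLF1 at 10.09 to 10.57 and GATA1 at 9.67 to 10.48 and the embryonic globin HBZ at 10.27 to 12.56. The 5 plasma cell markers at background and the erythroid signals go against the labelled cell type, so the cells are described here by their label only. The log2 of the summed signal of the plasma cell list was 11.19 to 11.33 in control and 11.08 to 11.53 in PRMT5_down, and that of the erythroid list 12.74 to 13.35 in control and 13.27 to 13.85 in PRMT5_down. All 8 erythroid genes had a positive difference, with a median of 0.39. The largest were 1.58 (SE 0.58) for AHSP and 1.00 (SE 0.36) for SLC4A1. Limma called 0 of the 8, and also 0 of all genes. The part of this erythroid difference in the results for the respiratory genes was not tested.

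Transcripts of the chain were present throughout. Of the 64 genes, 60 were above background on all 6 arrays, or 93.8%, against 56.3% of all genes. Every measured gene of complexes I, II and III and all 11 widely expressed genes of complex IV was above background on all 6 arrays. The other 6 genes of complex IV encode forms known from few tissues or conditions, and here the signal divided them. COX4I2, a form of subunit 4 known from lung and low oxygen, had log2 signals of 4.69, 4.75 and 4.88 on control arrays 1 to 3 and 4.44, 4.62 and 4.71 on PRMT5_down arrays 1 to 3, below background on each array. COX7A1, of heart and skeletal muscle, lay at 3.07 to 3.40, and the testis forms COX6B2 and COX8C lay at 4.06 to 4.45 and 3.64 to 3.95, all below background on each array. COX6A2, the heart and muscle form of subunit 6a, was just above background at 5.10 to 5.34. COX7B2, a testis form of subunit 7b, was clearly above it, with 7.46, 7.07 and 7.54 on control arrays 1 to 3 and 7.31, 7.14 and 7.95 on PRMT5_down arrays 1 to 3. The groups overlapped for COX7B2, and the highest value was that of PRMT5_down replicate 3.

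**Figure D1:**
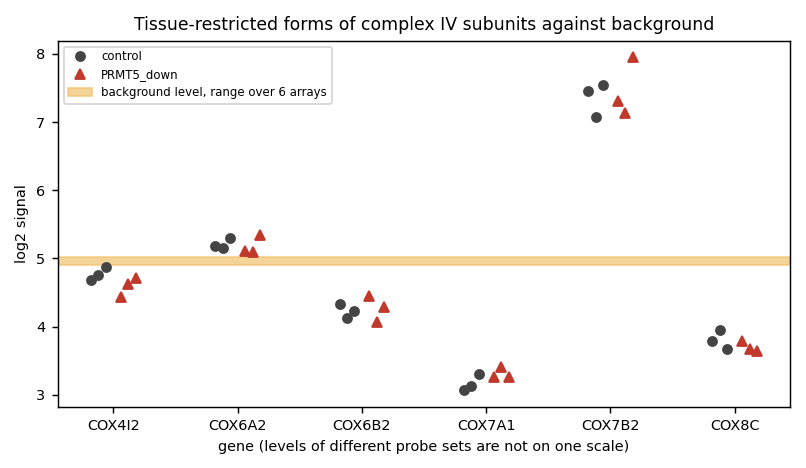
Log2 signal of the 6 tissue-restricted genes of complex IV on each of the 3 control (circles) and 3 PRMT5_down (triangles) arrays, with the range of the background level over the arrays, 4.90 to 5.02, as a band. COX7B2 lies above the band on all 6 arrays, COX6A2 just above it, and the other 4 genes lie below it.

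Promoter letters were read for the members because nuclear respiratory genes are known targets of the factors NRF1, GABPA (an ETS factor) and YY1. The table of RefSeq promoters (GRCh38.p14, 250 bases before to 50 after a gene's start) held 54 of the 64 genes and 14425 measured genes in all. The YY1 letters AAGATGGC, searched on both strands, were in 8 of the 54 members, or 14.8%, and in 4.83% of the 14425 genes. In all 8 members the match began 10 to 25 bases after the start and lay on the strand of the gene. Among the 766 matches in all measured genes, 57.8% lay after the start and 71.4% on the strand of the gene. These 8 are shown as 30-base windows, 5′ to 3′ on the gene's strand, with the match in capitals, because they share both letters and position:
NDUFA3, chr19:54102865-54102894, plus strand: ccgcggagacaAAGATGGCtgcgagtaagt
NDUFA6, chr22:42090729-42090758, minus strand: gatgctttggcAAGATGGCggggagcggcg
NDUFA7, chr19:8321343-8321372, minus strand: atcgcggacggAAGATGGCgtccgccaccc
NDUFA9, chr12:4649113-4649142, plus strand: gattgtgggaaAAGATGGCggctgccgcac
NDUFB8, chr10:100529836-100529865, minus strand: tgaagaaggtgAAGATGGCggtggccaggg
NDUFS4, chr5:53560649-53560678, plus strand: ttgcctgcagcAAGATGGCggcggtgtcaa
NDUFS7, chr19:1383913-1383942, plus strand: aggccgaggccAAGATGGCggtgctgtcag
UQCRC1, chr3:48609605-48609634, minus strand: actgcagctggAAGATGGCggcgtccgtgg

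The NRF1 motif, a palindrome of alternating G and C around a central AT pair, was in 3 members, or 5.56%, against 2.08% of the 14425 genes. These 3 are shown the same way, with the match in capitals:
NDUFA8, chr9:122159764-122159793, minus strand: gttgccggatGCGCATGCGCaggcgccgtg
NDUFB4, chr3:120596167-120596196, plus strand: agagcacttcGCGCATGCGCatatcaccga
SDHD, chr11:112086753-112086782, plus strand: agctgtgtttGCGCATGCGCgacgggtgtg

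The ETS letters CCGGAAG, searched on both strands, were in 14 members, or 25.9%, against 16.9% of the 14425 genes. NDUFS1 and NDUFB7 both had a match, and their 250 bases before the start are shown, with the match in capitals (CTTCCGG is CCGGAAG on the other strand), because these genes differed between replicate numbers in opposite directions, as given further on:
NDUFS1, chr2:206159445-206159694, minus strand: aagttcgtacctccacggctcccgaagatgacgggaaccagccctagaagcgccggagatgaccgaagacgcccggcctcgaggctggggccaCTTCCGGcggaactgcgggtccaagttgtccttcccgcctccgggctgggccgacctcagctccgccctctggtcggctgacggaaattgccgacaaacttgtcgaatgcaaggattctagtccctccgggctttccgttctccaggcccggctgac
NDUFB7, chr19:14572067-14572316, minus strand: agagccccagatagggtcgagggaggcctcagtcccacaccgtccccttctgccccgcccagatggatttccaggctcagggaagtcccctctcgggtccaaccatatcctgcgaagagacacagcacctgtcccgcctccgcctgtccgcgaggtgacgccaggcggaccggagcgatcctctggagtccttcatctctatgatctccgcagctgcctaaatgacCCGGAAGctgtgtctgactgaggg
A match is only a match of letters, and no binding was measured.

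The respiratory genes differed little between PRMT5_down and control in these arrays. No member passed the test between PRMT5_down and control: limma called 0 of 64 at an adjusted p under 0.05, where percent called over all genes was 0, and 0 of 64 had an unadjusted p under 0.05, against 0.822% of all genes. Differences ran from -0.22 to 0.21 on the log2 scale, with a median of 0.04 beside -0.02 over all genes. A positive difference was found for 43 members and a negative one for 20, or 67.2% positive against 43.3% of all genes. The medians were 0.04 for complex I, 0.11 for the 3 genes of complex II, 0.04 for complex III and 0.03 for complex IV. By replicate number the median over the 64 genes was 0.05, 0.08 and -0.01 in numbers 1, 2 and 3, so number 3 did not share the small positive shift. Complex I had 34 of 36 genes higher in PRMT5_down within number 2 but only 16 of 36 within number 3. Without PRMT5_down replicate 2 the median of the 64 turned to -0.005, and without PRMT5_down replicate 3 it was 0.087. These fits had no term for the replicate number, so with 1 array left out, differences between numbers entered the medians.

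The 95% intervals of all 64 differences lay between -0.69 and 0.92. For 50 members the whole interval lay within 0.5 of 0. A missed threshold does not show that levels were equal. The fit without a block counts differences between numbers as scatter, so its intervals were wider for genes that differed between numbers. When the replicate number entered the fit as a block (a replicate block), the intervals of all 64 lay between -0.41 and 0.40. That block fit also called 0 of 64 (limma), and 4 members had an unadjusted p under 0.05, or 6.25%, against 8.25% of all genes.

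**Figure D2:**
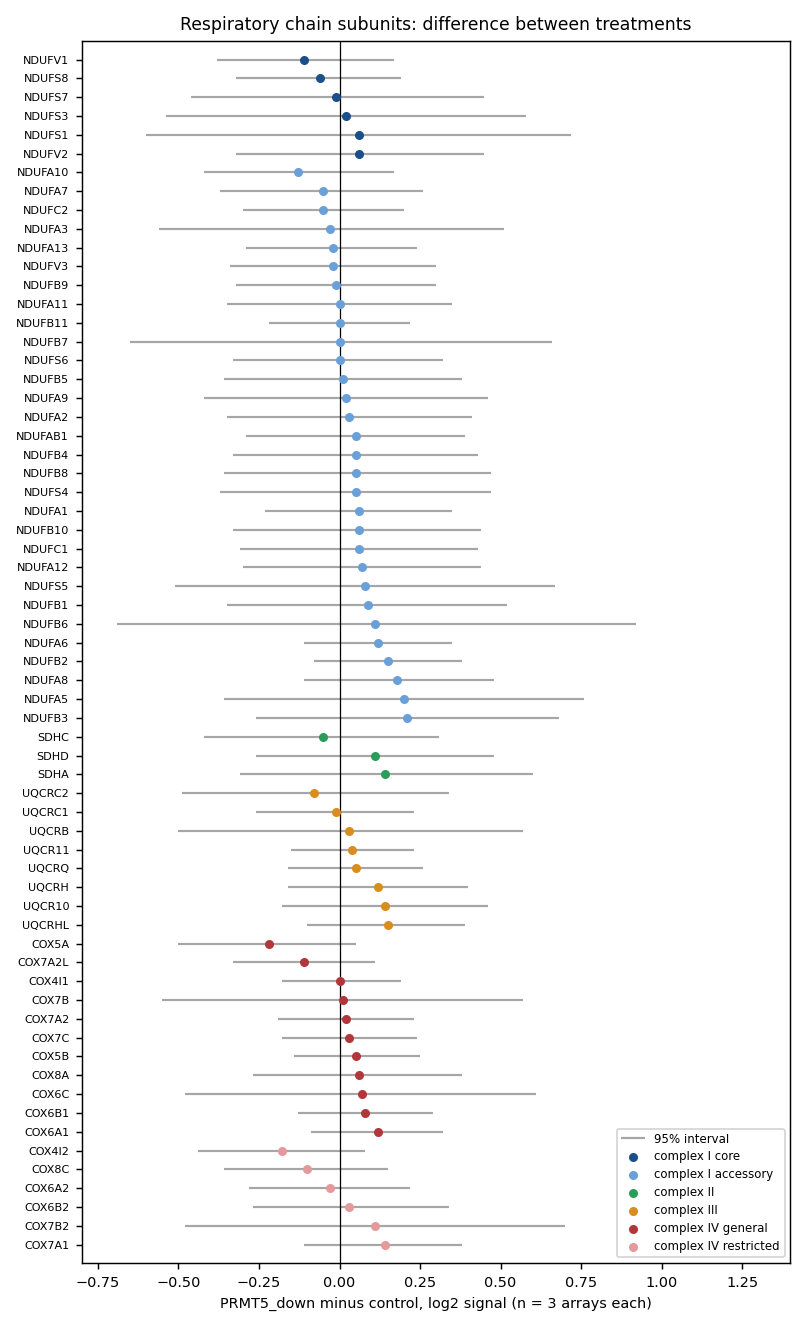
Difference between PRMT5_down and control in log2 signal (x axis) for each of the 64 genes (y axis), coloured by complex, with the 95% interval from limma as a line (n = 3 arrays a group). All points lie between -0.22 and 0.21 and every line crosses 0.

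COX5A, a nuclear subunit of complex IV, had the smallest p. Its log2 signal was 11.71, 11.85 and 11.82 on control arrays 1 to 3 and 11.38, 11.70 and 11.63 on PRMT5_down arrays 1 to 3. All 3 PRMT5_down values were below all 3 controls, the lowest being that of replicate 1. The means were 11.79 ± 0.07 in control and 11.57 ± 0.17 in PRMT5_down (SD, n = 3 each), a difference of -0.22 (SE 0.11, 95% interval -0.50 to 0.05). The exact two-sided permutation test of COX5A gave p = 0.1, and no smaller p is possible with 3 arrays a group, while limma gave an adjusted p of 1. With the replicate block its unadjusted p was 0.027 and its limma adjusted p 0.59.

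NDUFB2, a small accessory subunit of complex I, was the other member whose groups did not overlap, so 2 of 64 members, or 3.12%, stood apart in this way against 3.92% of all genes. By direction this is 1 higher member beside 1.26% of all genes and 1 lower member, COX5A, beside 2.66%. NDUFB2 stood at 10.79, 10.77 and 10.77 on control arrays 1 to 3 and at 11.08, 10.88 and 10.82 on PRMT5_down arrays 1 to 3. The difference was 0.15 (SE 0.10, limma adjusted p = 1), with most of it in replicate number 1. NDUFA8, an accessory subunit of complex I in the intermembrane space, differed by 0.18 (SE 0.12), with 0.23, 0.13 and 0.19 within numbers 1, 2 and 3. UQCRHL, a near-copy of UQCRH whose signal may come from either gene, differed by 0.15 (SE 0.10). COX7A2L, known for joining complexes III and IV, differed by -0.11 (SE 0.09). COX4I2 differed by -0.18 (SE 0.11) at signals below background. None of these passed limma.

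Small differences of one sign in all 3 replicate numbers were found for 21 members, 18 higher and 3 lower, or 32.8% against 26.9% of all genes. That is 28.1% higher in all 3 numbers against 11.7% of all genes, and 4.69% lower against 15.2%. Among the 18 were NDUFA5 and NDUFB3, accessory subunits of complex I picked here after their values were seen, which differed by 0.22, 0.12 and 0.26 and by 0.27, 0.09 and 0.27 within numbers 1, 2 and 3. Their unadjusted limma p with the replicate block was 0.038 and 0.036, and neither passed (limma adjusted p = 0.59 for both). The 3 lower genes, COX4I2, COX5A and COX7A2L, carry complex IV names, and COX4I2 was below background. The numbers of genes moving one way are a description, since the members were chosen with earlier results of these arrays known.

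None of the 3 measured genes of complex II passed. SDHA, the flavoprotein that oxidises succinate, had 10.08, 10.24 and 9.74 on control arrays 1 to 3 and 10.29, 10.34 and 9.86 on PRMT5_down arrays 1 to 3. Each PRMT5_down value was above the control of its number, and the groups still overlapped because number 3 was low in both. The difference was 0.14 (SE 0.19). SDHC, a membrane anchor, had 9.79, 10.11 and 9.85 on control arrays 1 to 3 and 9.83, 10.10 and 9.66 on PRMT5_down arrays 1 to 3, a difference of -0.05 (SE 0.15). SDHD, the other membrane anchor, had 11.28, 11.23 and 10.93 on control arrays 1 to 3 and 11.50, 11.18 and 11.09 on PRMT5_down arrays 1 to 3, a difference of 0.11 (SE 0.15). In all 3 genes the lower values were those of number 3 or, for SDHC, of numbers 1 and 3.

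The replicate number separated the arrays far more than the treatment did. Of the variation of a gene over the 6 arrays, the number took a median of 85.9% and the treatment 3.4% over the 64 members, against 69.0% and 7.1% over all genes. The number outweighed the treatment in 59 of 64 members, or 92.2%, and in 86.0% of all genes. The number has more degrees of freedom than the treatment, so scatter alone gives it a larger share. The shares were not corrected for this. For complex I the median share of the number was 91.0%, for complex II 88.2%, for complex III 62.6% and for complex IV 49.4%. Each number was therefore compared with the other pair of numbers in limma, with treatment in the model (n = 2 arrays against 4). These 3 comparisons use the same 6 arrays and are not independent of each other.

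**Figure D3:**
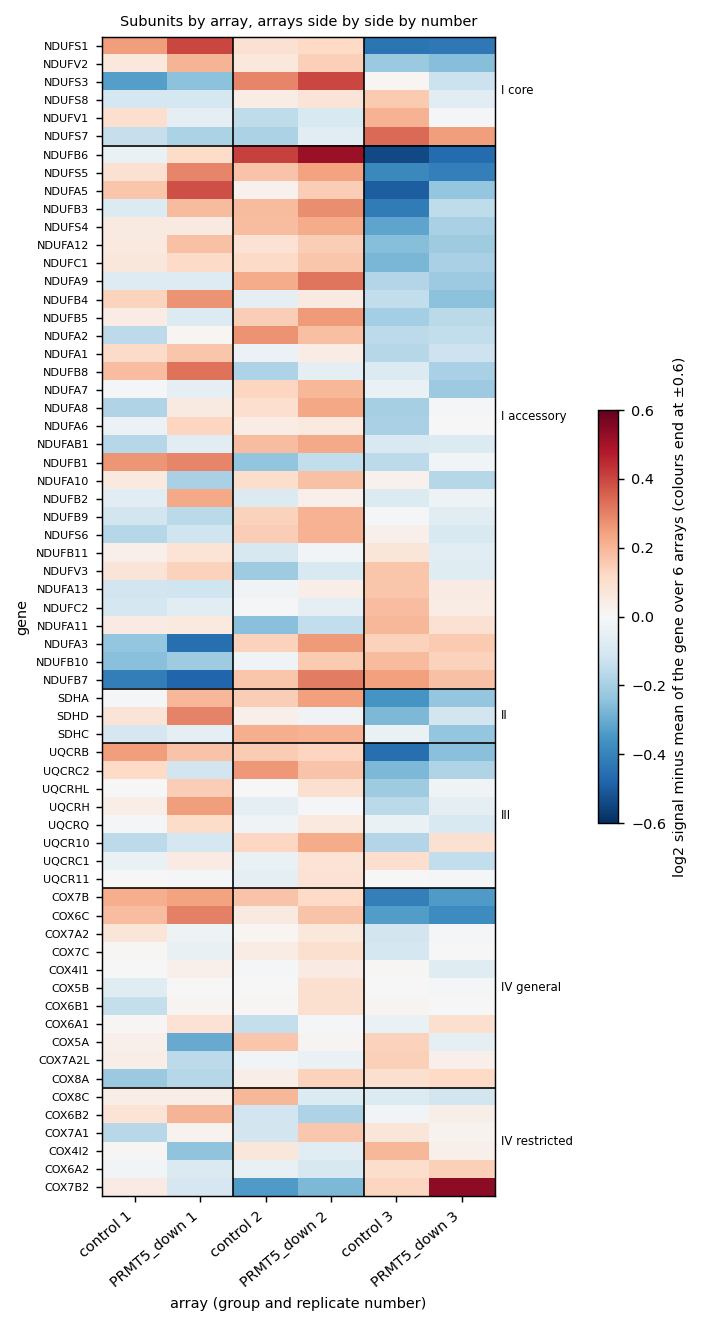
Log2 signal of the 64 genes (rows, grouped by complex) on the 6 arrays (columns, ordered by replicate number with control and PRMT5_down side by side), minus each gene's mean over the arrays, with red above and blue below the mean. Control and PRMT5_down of a number resemble each other, and number 3 is blue for most of complexes I, II and III while single genes such as NDUFS7 and COX7B2 go the other way.

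Number 3 was the one in which most members differed. Against numbers 1 and 2, limma called 19 of 64 members, or 29.7%, beside 27.2% of all genes. Of all genes, only 56.3% were above background on all 6 arrays. With the lowest 50% of genes left out limma called 21 of 59 members, or 35.6%, against 50.5% of the genes kept. With the lowest 30% left out the shares were 32.3% and 39.2%. Of the 19, 16 were lower and 3 higher, which is 25% lower against 13.9% of all genes and 4.69% higher against 13.2%. Here too all genes include those below background, and shares by direction were not computed without them. An unadjusted p under 0.05 was found for 25 members, or 39.1%, against 38.2% of all genes. The arrays of number 3 did not overlap the others for 27 members, or 42.2%, against 35.3%, of which 21 were lower (14.5% of all genes) and 6 higher (20.8%). A positive difference was found for 21 members, or 32.8%, against 59.9% of all genes. The median difference of the members was -0.09, beside 0.05 over all genes. It was -0.14 for complex I, -0.29 for complex II and -0.13 for complex III, and 0.01 for complex IV. All 8 genes of complex III and all 3 of complex II had a negative difference, 25 of 36 in complex I and 7 of 17 in complex IV. Those of complex III ran from -0.53 to -0.01, so some were near 0, and limma called 2 of the 8. Within complex I, 22 of the 30 accessory genes had a negative difference, with a median of -0.15, and 3 of the 6 core genes, with a median of -0.01. Within complex IV it was 6 of the 11 widely expressed genes, with a median of -0.01, and 1 of the 6 restricted forms, with a median of 0.12. Of these restricted forms, 4 were below background on each array. The median of the 64 was -0.09 within the control arrays and -0.14 within the PRMT5_down arrays. These calls, like most calls over all genes, need all 6 arrays, and 1 residual degree of freedom remains with 1 left out. Without control replicate 1 limma called 3 members, or 4.69% against 4.52% of all genes. Without control replicate 2 or PRMT5_down replicate 1 or 2 it called 0 members and 0% of all genes. Leaving out an array of number 3 leaves 1 array of that number, so those counts are not given. Over the left-out arrays the median of the 64 stayed negative, from -0.083 to -0.140. The 3′ minus 5′ log2 signal of the actin control, a measure of RNA quality, is higher where RNA is more degraded. It was 1.09, 1.02 and 0.73 on control arrays 1 to 3 and 1.22, 1.02 and 0.84 on PRMT5_down arrays 1 to 3. By this measure number 3 had the least degraded RNA and number 1 the most. That of GAPDH was between 0.06 and 0.14 on all arrays. Erythroid markers also differed between numbers. For number 3, limma called 2 of the 8 higher and 2 lower, with HBZ at -1.10 and AHSP, a globin chaperone, at -0.94, and GATA1 at 0.39 and SLC4A1 at 0.50. For number 1 it called 3 higher, HBZ, AHSP at 1.44 and TFRC at 0.70, and 1 lower, GATA1 at -0.67. Over all genes, 12.8% were called higher and 12.6% lower for number 1. For number 2 it called 2 lower, SLC4A1 at -0.87 and EPOR at -0.34, beside 6.78% of all genes. Of the 11 plasma cell markers, 0 were called in the 3 number comparisons, but 5 of them were above background on no array. The part of RNA quality and of these markers in the differences was not tested.

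NDUFB6, an accessory subunit in the membrane arm of complex I, had the lowest difference. It stood at 9.78, 10.23 and 9.28 on control arrays 1 to 3 and at 9.93, 10.34 and 9.36 on PRMT5_down arrays 1 to 3. Both arrays of number 3 were the lowest and both of number 2 the highest. Its signal in number 3 was 59.5% of that in the other numbers, a log2 difference of -0.75 (SE 0.08, limma adjusted p = 0.0013). Its second probe set gave -0.79.

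NDUFS1, the largest core subunit of complex I and part of the path of electrons through its iron-sulphur clusters, stood at 8.92, 8.76 and 8.23 on control arrays 1 to 3 and at 9.07, 8.79 and 8.24 on PRMT5_down arrays 1 to 3. Number 3 was at 63.7% of the others, a difference of -0.65 (SE 0.09, limma adjusted p = 0.0020). NDUFS5, a small subunit of complex I in the intermembrane space, stood at 11.10, 11.18 and 10.62 on control arrays 1 to 3 and 11.30, 11.25 and 10.60 on PRMT5_down arrays 1 to 3. Only number 3 stood apart, with a difference of -0.60 (SE 0.09, limma adjusted p = 0.0028). The genes COX7B, COX6C and UQCRB, picked after their values were seen, had differences of -0.56, -0.53 and -0.53, so the lower calls were not limited to complex I.

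A few genes were higher in number 3. NDUFS7, a core subunit of complex I with the last iron-sulphur cluster before ubiquinone, stood at 10.88, 10.83 and 11.36 on control arrays 1 to 3 and at 10.83, 10.95 and 11.27 on PRMT5_down arrays 1 to 3. The difference was 0.44 (SE 0.09, limma adjusted p = 0.0088), and its other 2 probe sets above background each gave 0.39. COX7B2 differed by 0.50 (SE 0.12, limma adjusted p = 0.018), with the array of PRMT5_down replicate 3 highest, and its difference ran from 0.275 to 0.725 with 1 array left out. NDUFB7, an accessory subunit in the intermembrane space, differed by 0.32 (SE 0.09, limma adjusted p = 0.035). Its means in numbers 1, 2 and 3 were 9.18, 9.86 and 9.84, so number 3 was above number 1 but not above number 2. Within the core of complex I, then, NDUFS1 and NDUFV2 were lower in number 3 and NDUFS7 higher, while NDUFS3, NDUFS8 and NDUFV1 did not pass.

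Number 1 against numbers 2 and 3 gave calls for 14 of 64 members, or 21.9%, against 25.4% of all genes. Of these 9 were higher, or 14.1% against 12.8%, and 5 lower, or 7.81% against 12.6%. All genes include those below background. With the lowest 50% of genes left out limma called 15 of 59 members, or 25.4%, against 48.4% of the genes kept. With the lowest 30% left out the shares were 22.6% and 36.9%. Shares by direction were not computed with these filters. An unadjusted p under 0.05 was found for 23 members, or 35.9% against 35.2%. The arrays of number 1 did not overlap the others for 22, or 34.4% against 32.1%, of which 12 were higher (13.9% of all genes) and 10 lower (18.1%). A positive difference was found for 34 members, or 53.1% against 41.3%, and the median of the 64 was 0.02, beside -0.04 over all genes. NDUFB7 was lowest, at 9.21, 9.79 and 9.87 on control arrays 1 to 3 and 9.15, 9.93 and 9.80 on PRMT5_down arrays 1 to 3. Only number 1 stood apart, at 63.0% of the others, a difference of -0.67 (SE 0.09, limma adjusted p = 0.0019). NDUFA3, an accessory subunit of complex I, differed by -0.52 (SE 0.10, limma adjusted p = 0.0071). NDUFS3, a core subunit of the arm of complex I that reaches into the matrix, differed by -0.43 (SE 0.09, limma adjusted p = 0.011). This call was lost with its most variable probe set (-0.345, limma adjusted p = 0.081), whose mean was 3.71 and which was above background on no array. On the higher side stood NDUFS1 with 0.49 (SE 0.09), NDUFB1 with 0.42 (SE 0.08) and NDUFA5 with 0.42 (SE 0.09), and limma gave them adjusted p of 0.0049, 0.0088 and 0.0096. The value of NDUFS1 was 0.276 with the mean of its probe sets, and stayed past the threshold. NDUFB1 had 11.28, 10.78 and 10.86 on control arrays 1 to 3 and 11.31, 10.87 and 11.00 on PRMT5_down arrays 1 to 3, so number 1 alone was high. Without PRMT5_down replicate 3 limma called 3 members, or 4.69% against 12.2% of all genes. Without control replicate 2 it called 1, or 1.56% against 7.75%. Without control replicate 3 or PRMT5_down replicate 2 it called 0 members and 0% of all genes. Leaving out an array of number 1 leaves 1 array of that number, so those counts are not given.

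Number 2 against numbers 1 and 3 gave calls for 8 of 64 members, or 12.5%, against 14% of all genes. This count depended on the settings: it was 14 with the mean of probe sets (21.9% against 14.4% of all genes), 15 of 59 with the lowest 50% of genes left out (25.4% against 28.2%) and 22 with trend and robust variance (34.4% against 14.6%). Of these 7 were higher, all in complex I, or 10.9% against 7.26%, and 1 lower, or 1.56% against 6.78%. An unadjusted p under 0.05 was found for 25 members, or 39.1% against 26.6%. The arrays of number 2 did not overlap the others for 21 members, or 32.8% against 21.6%, of which 16 were higher and 5 lower, each beside 10.8% of all genes. A positive difference was found for 48 members, or 75% against 46.1%. The median of the 64 was 0.10, beside -0.01 over all genes, and 0.17 in complex I, 0.30 in complex II, 0.05 in complex III and 0.06 in complex IV. NDUFB6 was highest, at 162.2% of the other numbers, a difference of 0.70 (SE 0.08, limma adjusted p = 0.0023). NDUFS3 stood at 9.56, 10.18 and 9.90 on control arrays 1 to 3 and at 9.64, 10.29 and 9.76 on PRMT5_down arrays 1 to 3, and differed by 0.52 (SE 0.09, limma adjusted p = 0.010). NDUFA9, an accessory subunit that stabilises the junction of both arms of complex I, differed by 0.41 (SE 0.09, limma adjusted p = 0.018). COX7B2 was the 1 lower gene, with -0.46 (SE 0.12, limma adjusted p = 0.041). NDUFB1 and NDUFA11, next in order of p, had differences of -0.29 (SE 0.08) and -0.30 (SE 0.09) and did not pass. With the mean of probe sets or with trend and robust variance both passed, and NDUFA11 also with the most variable probe set or the lowest 50% of genes left out. The call of COX7B2 was lost without the treatment term (limma adjusted p = 0.058). Without control replicate 1 or 3 or PRMT5_down replicate 1 or 3, limma called 0 members and 0% of all genes. Counts are not given with an array of number 2 left out, which leaves 1 array of that number. With any 1 of the 6 arrays left out, the median of the 64 ran from 0.098 to 0.133.

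**Figure D4:**
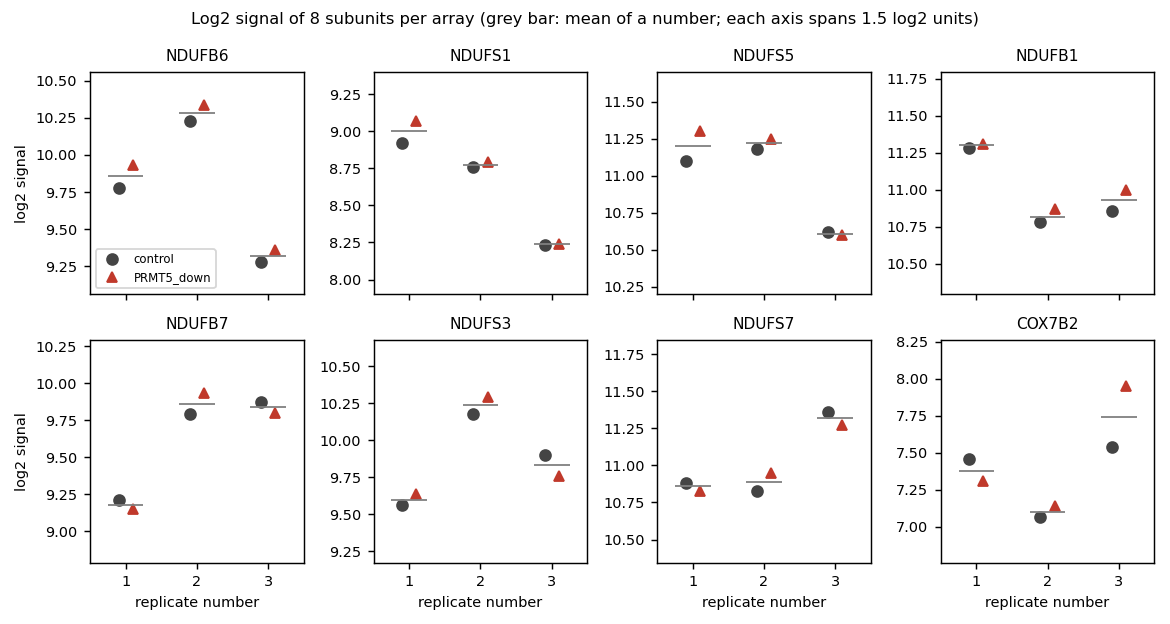
Log2 signal of 8 subunit genes (y axes, each spanning 1.5 log2 units) by replicate number (x axis), with control as circles, PRMT5_down as triangles and the mean of each number as a grey bar. The 2 arrays of a number lie close together, and the number that stands apart differs between genes: number 3 is low for NDUFS1 and NDUFS5 and high for NDUFS7, while number 1 is low for NDUFB7 and high for NDUFB1.

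**Figure D5:**
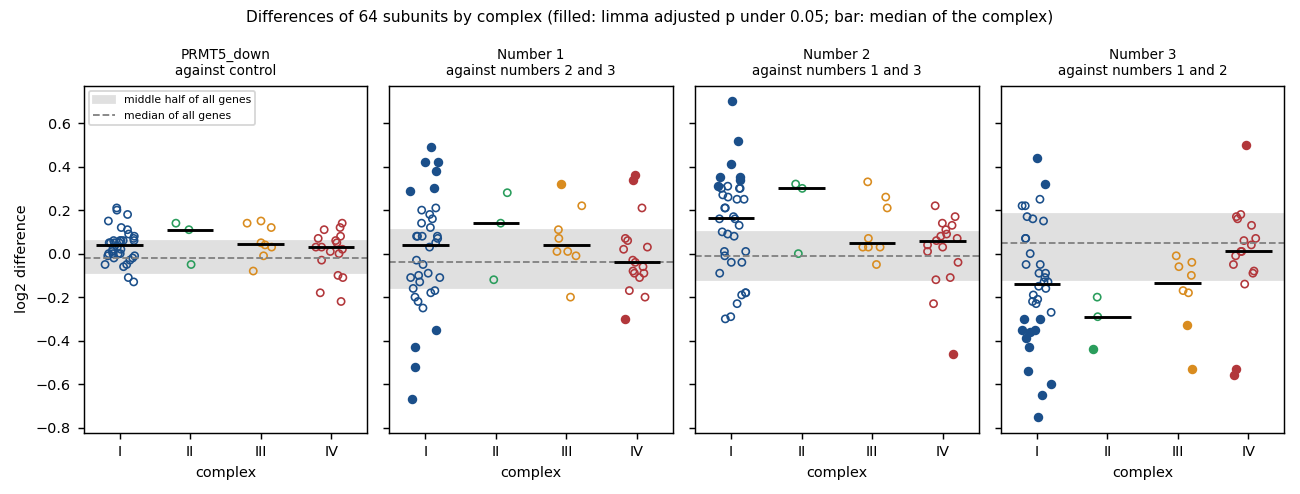
Log2 difference of each of the 64 genes (points) by complex (x axis) in the 4 comparisons (panels), with filled points for a limma adjusted p under 0.05, a black bar for the median of a complex, and the interquartile range and median of all genes as a grey band and dashed line. No point is filled for PRMT5_down against control, and complex I spreads from -0.75 to 0.44 for number 3 against numbers 1 and 2.

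The differences between numbers were seen in both groups of arrays. For number 3 the sign was the same in the control and the PRMT5_down arrays in 51 of 64 members, or 79.7%, against 73.1% of all genes. It was 84.4% against 71.2% for number 1 and 79.7% against 63.8% for number 2. Across the 64 members, Pearson's r between the differences in control and in PRMT5_down arrays was 0.87, 0.84 and 0.85 for numbers 1, 2 and 3, and over the 18132 genes 0.82, 0.72 and 0.79. The genes share the same arrays and are not independent, so these values are descriptions.

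Genes of the pathway outside the complexes showed no call between treatments either. Of 17 ATP synthase genes 13 were higher and 4 lower in PRMT5_down, of 45 assembly factors 26 and 19, of 11 regulators 6 and 5, and of 11 enzymes of the tricarboxylic acid cycle 6 and 5, and limma called 0 in each list. ATP5MC1, for the proton-carrying ring of ATP synthase, differed by 0.18 (SE 0.11) and ATP5PD, of its stalk, by -0.20 (SE 0.19). The assembly factors with the smallest p were COA6 at 0.16 (SE 0.08) and COX20 at 0.28 (SE 0.15), which help to build complex IV. TFAM and TFB2M, needed for transcription of mitochondrial DNA, differed by 0.28 (SE 0.26) and 0.21 (SE 0.28). IDH3A and IDH3G, of the NAD-dependent isocitrate dehydrogenase, differed by 0.20 (SE 0.15) and -0.33 (SE 0.26). CYCS, cytochrome c itself, differed by 0.11 (SE 0.14) and CYC1, cytochrome c1 of complex III, by -0.01 (SE 0.15). The mitochondrially encoded genes ND1, ND4 and COX3 differed by 0.03 to 0.07.

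Between numbers, genes of these lists passed the test. Against numbers 1 and 2, number 3 had 7 of 17 ATP synthase genes called lower and 1 higher by limma, with a median of -0.24. Over all genes, those below background included, 13.9% were called lower and 13.2% higher in this comparison. Of 45 assembly factors 12 were called lower and 8 higher, of 11 regulators 2 lower and 4 higher, and of 11 cycle enzymes 3 lower and 2 higher. SCO2, a copper chaperone for complex IV, stood at 7.01, 7.37 and 8.20 on control arrays 1 to 3 and at 6.88, 7.52 and 8.35 on PRMT5_down arrays 1 to 3. It was higher in number 3 by 1.08 (SE 0.10, limma adjusted p = 0.00076), a larger difference than in any subunit gene. SUCLA2, of succinyl-CoA ligase, stood at 8.98, 8.91 and 7.96 on control arrays 1 to 3 and 9.19, 8.99 and 8.08 on PRMT5_down arrays 1 to 3, and was at 50.1% of the other numbers in number 3 (limma adjusted p = 0.00072). NDUFAF7, an assembly factor of complex I, differed by -0.66 (SE 0.09) and OGDH, the oxoglutarate dehydrogenase, by 0.48 (SE 0.09). ATP5F1D, of the ATP synthase rotor, differed by 0.51 (SE 0.09) while ATP5PD differed by -0.44 (SE 0.09). Of the regulators, PPRC1 differed by 0.47 (SE 0.08) and TFB2M by -0.64 (SE 0.11), and limma called all 6 of these genes. The coactivator gene PPARGC1A was not above background on any array. CYCS at -0.18 (SE 0.10), CYC1 at 0.24 (SE 0.09), ND4 at -0.07 (SE 0.08) and COX3 at -0.03 (SE 0.10) did not pass.

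Members that share the YY1 or ETS letters lay on both sides of 0. The 8 members with the YY1 letters ran from -0.39 to 0.44 for number 3 against numbers 1 and 2, with 1 called higher and 2 lower by limma. The 14 with the ETS letters ran from -0.65 (NDUFS1) to 0.32 (NDUFB7), with 1 called in each direction. The 3 with the NRF1 letters, NDUFA8, NDUFB4 and SDHD, ran from -0.30 to -0.16, and 1 was called lower. The 30 members with none of these letters ran from -0.75 to 0.50, with 9 called lower and 1 higher. All these counts stand beside 13.9% of all genes called lower and 13.2% called higher, with genes below background included. Between treatments the medians were 0.00, 0.06 and 0.11 for the YY1, ETS and NRF1 letters and 0.03 for none.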

How the data were processed

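RNA of 3 PRMT5_down and 3 control samples was measured on Affymetrix arrays. The authors deposited 1 log2 signal for each probe set and array. The submitters' processing notes name RMA, which gives arrays the same distribution and so can hide a shift common to most genes. Its version, and the chip definition, were not given in the sources used here. No further normalization was applied. The array has 49372 probe sets: 44988 with a single gene symbol, 1832 with several, 2473 with none and 79 controls. Each of 18132 genes took its brightest single-symbol probe set by mean over the arrays, with symbols updated through gene identifiers.

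Differences were tested in limma 3.58.1 under R 4.3.3 (lmFit, eBayes) over all genes, adjusted by Benjamini-Hochberg and called at an adjusted p under 0.05. PRMT5_down was compared with control without a block, and each replicate number with the others with treatment in the model. For numbers 1, 2 and 3, the deviations of both arrays from their group means had r = 0.82, 0.72 and 0.79 over genes. Equal numbers were therefore treated as pairs in the replicate block, an alternative, on the evidence of the values since the labels state no pairing. The main fit between treatments did not use these pairs, so differences between numbers entered its SEs, intervals and p-values. The fits were tested on simulated data, with noise taken from the fit with treatment and number. The simulated treatment test held no differences between numbers, so it cannot show how the fit without a block performs on these arrays. Alternatives changed normalization, probe set rule, filter, variance model, array weights, covariates and the arrays used. Planned comparisons of protein sequences were not made, since no protein table was used here.

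The members and lists were chosen with earlier results of these data known. Named genes were, by rule, the 3 members with the smallest p in each direction of each comparison, complex II, the complex I core, the restricted forms of complex IV, and 2 genes of each other list; others are marked as picked after their values were seen.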

Additional observations from a re-analysis of the deposited data

How the results depend on the processing

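Between PRMT5_down and control, 0 members were called by limma under every alternative run, the replicate block included, and the block changed no call. Its median difference of members was 0.037, also with the block. It was 0.028 to 0.062 with the block and 1 pair of arrays left out, a setting chosen after seeing the data. With 1 array left out and no block the median ran from -0.005 to 0.087, and differences between numbers enter these values. In the number comparisons, 1 residual degree of freedom remained with 1 array left out, and calls fell both among the members and over all genes. The medians of the members then ran from -0.013 to 0.027 for number 1, from 0.098 to 0.133 for number 2 and from -0.140 to -0.083 for number 3. For number 2, called members were 8 as planned, 14 with the mean of probe sets, 15 with the lowest 50% left out and 22 with trend and robust, beside 14%, 14.4%, 28.2% and 14.6% of all genes. With the lowest 50% left out, 25.4% of members were called for number 1 and 35.6% for number 3, beside 48.4% and 50.5% of the genes kept. The median moved to -0.011 and -0.026 for number 1 with the mean of probe sets and the most variable probe set, to 0.131 for number 2 and -0.143 for number 3 with the most variable probe set, and to 0.130 for number 2 with the lowest 50% left out; the cause was not tested. Alternatives were run for the 3 members with the smallest p in each direction of each comparison, and none of these changed direction; other named members were not rerun. NDUFA4 is listed as COXFA4 in the probe table and was no member, so counting it with complex I was not run.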

Other observations

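Genes that the probe table lists under the newer symbols COXFA4 (formerly NDUFA4, a subunit of complex IV) and COXFA4L2 (its paralog, known from low oxygen) fell outside the choice of members. COXFA4 stood at 12.32, 12.35 and 12.08 on control arrays 1 to 3 and at 12.47, 12.36 and 12.16 on PRMT5_down arrays 1 to 3, so number 3 was the lowest in both groups. Its difference for number 3 against the others was -0.26 and did not pass (limma adjusted p = 0.06). COXFA4L2 stood at 5.37, 5.59 and 5.87 on control arrays 1 to 3 and 5.29, 5.65 and 5.74 on PRMT5_down arrays 1 to 3, above background on all 6 arrays, and was higher in number 3 by 0.33 (limma adjusted p = 0.027).

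Probe sets of a gene did not always agree. Of 33 members with more than 1 probe set above background on all 6 arrays, 5 had opposite signs between probe sets for the treatment difference, 5 for number 1, 4 for number 2 and 3 for number 3. The median spread between probe sets of a gene was 0.03 for the treatment difference and 0.08, 0.06 and 0.05 for numbers 1, 2 and 3. The largest spread was 0.28 for the treatment difference and 0.71, 0.75 and 0.51 for numbers 1, 2 and 3. For NDUFS1, 4 of its 5 probe sets gave 0.32 to 0.49 for number 1 against the others, and the dimmest, with a mean of 7.07, gave -0.15. All 5 gave negative values for number 3, from -0.65 to -0.40.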
